A study of Mus musculus with 120 samples.

Results

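The genes described here encode the signalling chains of the T cell receptor complex (Cd3e, Cd3d, Cd3g and Cd247), its coreceptors (Cd4, Cd8a and Cd8b1), its proximal kinases (Lck and Zap70) and the inhibitory receptor Cd5. These 10 genes were taken by name from the count tables of both sequencing batches, which share 55487 genes, and each name matched 1 gene. In progressors to diabetes, 7 of the 9 members that could be tested were higher in implant biopsies taken from 5 weeks before onset onwards than at 6 weeks of age, by 0.59 (Cd247) to 1.5 (Cd3d) on the log2 scale, in a comparison where 39.5% of all genes tested changed. The increases were larger in the mice of 1 sequencing batch than in those of the other. In nonprogressors 1 of 9 members (Cd5) was higher later, where 24.1% of all genes tested changed. A test of the difference between progressors and nonprogressors in this change called 0 of 9 members and 0% of all genes. The rise was therefore not shown to be particular to progressors. Cd4 and Cd8a did not pass that test. Between NOD and NOR mice, whose later samples were not all matched for age, Cd4 was the 1 member of 10 called. That share was close to the 8.98% of all genes tested that differed. That call was lost without NOR mouse 3, with nonprogressors as the only NOD mice and at 6 weeks alone.

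T cells recognise peptides through a receptor whose variable chains carry no signalling motif of their own. The CD3 and zeta (Cd247) chains carry the tyrosine motifs that the kinase Lck phosphorylates, and the kinase Zap70 then binds to them. CD4 and CD8 bind MHC molecules and bring Lck to the complex, and CD5 dampens the signal. Diabetes in the NOD mouse is a T cell mediated loss of beta cells. CD4 and the CD8 alpha chain are also found on some myeloid and dendritic cells of the mouse. NK cells share Cd247, Lck and Zap70 with T cells, and some B cells have Cd5.

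Microporous poly(ε-caprolactone) scaffolds, 4 per mouse, were implanted under the skin of female mice at 4 weeks of age. From 6 weeks of age a scaffold was taken out each week, in rotation over the sites, and a new scaffold was put in its place. Each biopsy, an immunological niche (IN), is a whole implant with the host cells that entered it. Bulk total RNA of 120 INs was sequenced after removal of ribosomal RNA. NOD/ShiLtJ mice were progressors, which became hyperglycemic (10 mice, 58 samples), or nonprogressors, which did not (11 mice, 39 samples), and diabetes-resistant NOR/LtJ mice served as controls (5 mice, 23 samples). No genetic change besides the strain is described for these groups, and mice of all groups had anesthesia and an analgesic (carprofen before implantation) around surgery. Progressors were sampled at 6 weeks of age (10 samples), at 7 weeks before onset (−7, 8 samples), and at −5, −3 and −1 weeks and onset (10 samples each). Nonprogressors were sampled at 6 weeks (11 samples), 14 weeks (10) and 10, 18 and 22 weeks (4 each), and NOR at the same 5 ages (4 or 5 mice each). A further 6 nonprogressor samples are labelled 31, 38 or 108 days after implantation with no link to a numbered mouse, and entered no test. Later progressor samples are dated back from onset and those of the other groups by age, so they are not matched for age. INs at 6 weeks were first implants, while later INs could be replacements at a site already operated on. Age, time in place and earlier surgery therefore cannot be told apart where later samples are set against 6 weeks.

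Batch 1 (74 samples) held all NOR samples, progressor mice 1 to 5 and nonprogressor mice 1 to 4, while batch 2 (46 samples) held the other NOD mice and all samples at −7 weeks. The batches were run on different sequencing instruments. Total counts ran from 4722396 to 56185434 (median 33487260). Levels are given as CPM, counts scaled to a common library size with edgeR's TMM factors. Ptprc, which marks leukocytes, ran from 193 to 602 CPM and the 8 macrophage markers summed to 1719 to 3867 CPM, while the 10 members together made up 5.61 to 87.7 CPM. The 18-week library of NOR mouse 5 stood apart, with 85.7% of its counts on 1 ribosomal RNA gene against at most 12.6% in any other library. It had 16 counts of Cd5 and none of the other 9 members, and a limit of 3 counts there allows levels of up to 3.03 CPM, against a median limit of 0.0857 CPM over all libraries (counting error only). In bulk samples, fewer T cells and less of a transcript per cell cannot be told apart.

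In GRCm38, Cd3g (chromosome 9, 44969572 to 44980431, minus strand), Cd3d (44981786 to 44987339, plus strand) and Cd3e (44998740 to 45009627, minus strand) lie side by side. Cd8b1 (71322788 to 71337494) and Cd8a (71373427 to 71379173) are on the plus strand of chromosome 6, and Cd4 (124864692 to 124888221) is on the minus strand of the same chromosome. Cd247 (165788681 to 165877277) and Zap70 (36761798 to 36782818) lie on the plus strand of chromosome 1, Lck (129548344 to 129573641) on the minus strand of chromosome 4 and Cd5 (10717116 to 10739002) on the minus strand of chromosome 19. Counts cover all exons of a gene together. Cd247 shares 3007 exon bases with Pou2f1 on the opposite strand, and since the strand used in counting is not given in the sources used here, its values are uncertain. Cd3e shares 135 exon bases with an antisense gene and Lck shares 25 with a microRNA gene.

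The sequences before the starts are shown because 7 of these genes were higher later in progressors and Cd8a did not pass that test. RefSeq's promoter table (GRCm38.p6) held 8 of the 10 members, and Cd4 and Cd8b1 were not found in it. Each line gives the 120 bases before a start, 5′ to 3′ on the gene's own strand, with a further start for Lck. Zap70 has 2 further starts, which are not shown. Capitals mark the ETS core GGAA, the RUNX letters TGNGGT and the E-box CAGNTG on either strand.
Cd3e (chr9:45009612-45009731, minus strand): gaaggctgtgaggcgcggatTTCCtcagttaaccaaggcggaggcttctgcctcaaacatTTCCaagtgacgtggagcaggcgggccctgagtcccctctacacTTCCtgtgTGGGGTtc
Cd3d (chr9:44981666-44981785, plus strand): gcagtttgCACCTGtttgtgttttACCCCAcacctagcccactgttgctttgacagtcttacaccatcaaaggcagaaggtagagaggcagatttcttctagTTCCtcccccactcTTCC
Cd3g (chr9:44980432-44980551, minus strand): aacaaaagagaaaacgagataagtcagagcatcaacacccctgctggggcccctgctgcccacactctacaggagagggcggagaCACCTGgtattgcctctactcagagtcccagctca
Cd247 (chr1:165788561-165788680, plus strand): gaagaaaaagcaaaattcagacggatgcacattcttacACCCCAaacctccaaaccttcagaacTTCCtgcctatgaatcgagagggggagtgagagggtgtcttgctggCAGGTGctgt
Cd8a (chr6:71373307-71373426, plus strand): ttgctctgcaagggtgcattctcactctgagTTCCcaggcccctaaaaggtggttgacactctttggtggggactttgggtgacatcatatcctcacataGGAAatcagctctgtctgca
Lck (chr4:129573642-129573761, minus strand): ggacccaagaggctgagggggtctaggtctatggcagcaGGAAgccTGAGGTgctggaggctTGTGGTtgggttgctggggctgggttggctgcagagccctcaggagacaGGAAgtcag
Lck, further start (chr4:129558373-129558492, minus strand): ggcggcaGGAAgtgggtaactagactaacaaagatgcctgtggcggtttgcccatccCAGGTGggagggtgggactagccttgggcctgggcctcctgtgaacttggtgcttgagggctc
Zap70 (chr1:36761678-36761797, plus strand): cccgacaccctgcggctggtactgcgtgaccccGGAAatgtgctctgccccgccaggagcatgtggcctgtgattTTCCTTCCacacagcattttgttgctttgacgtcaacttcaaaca
Cd5 (chr19:10738975-10739094, minus strand): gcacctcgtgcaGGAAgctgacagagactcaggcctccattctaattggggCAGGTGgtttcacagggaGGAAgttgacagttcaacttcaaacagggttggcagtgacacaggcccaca
The ETS core was found at the first start of 7 of the 8 members (all but Cd3g), the RUNX letters at 4 (Cd3e, Cd3d, Cd247 and Lck) and the E-box at 4 (Cd3d, Cd3g, Cd247 and Cd5). Of 32851 mouse promoters, 73.4%, 21% and 24.7% held them in a stretch of the same length. Cd8a held the ETS core and neither of the other motifs, as did the first start of Zap70, which was among the genes higher later. Of the further starts of Zap70, 1 held the ETS core and the RUNX letters and the other none of the motifs. A match describes letters in this window and is no evidence of binding.

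Levels differed widely among the members. Per kilobase of exon, the median level in batch 1 (68 libraries, without those labelled by days) was highest for Cd4 (1.46 CPM per kb), followed by Lck (0.849), Zap70 (0.523), Cd5 (0.339), Cd3e (0.336), Cd3g (0.198), Cd247 (0.170), Cd3d (0.124), Cd8a (0.0934) and Cd8b1 (0.0293). In batch 2 (46 libraries) the median CPM per kb was 1.40 for Cd4, 1.31 for Lck, 0.544 for Zap70, 0.457 for Cd3e, 0.320 for Cd5, 0.288 for Cd3d, 0.283 for Cd3g, 0.168 for Cd247, 0.147 for Cd8a and 0.0355 for Cd8b1. Cd4, Lck and Zap70 led in both batches and the CD8 chains came last, while the order of Cd3e and Cd5 and the place of Cd3d changed. Cd8b1 had 0 counts in 30 of the 120 libraries and 10 or more in 7, and passed the filter on low counts in the comparison of NOD with NOR alone. Cd3d reached 10 counts in 71 libraries, Cd8a in 85 and each of the other 7 in at least 103.

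**Figure D1:**
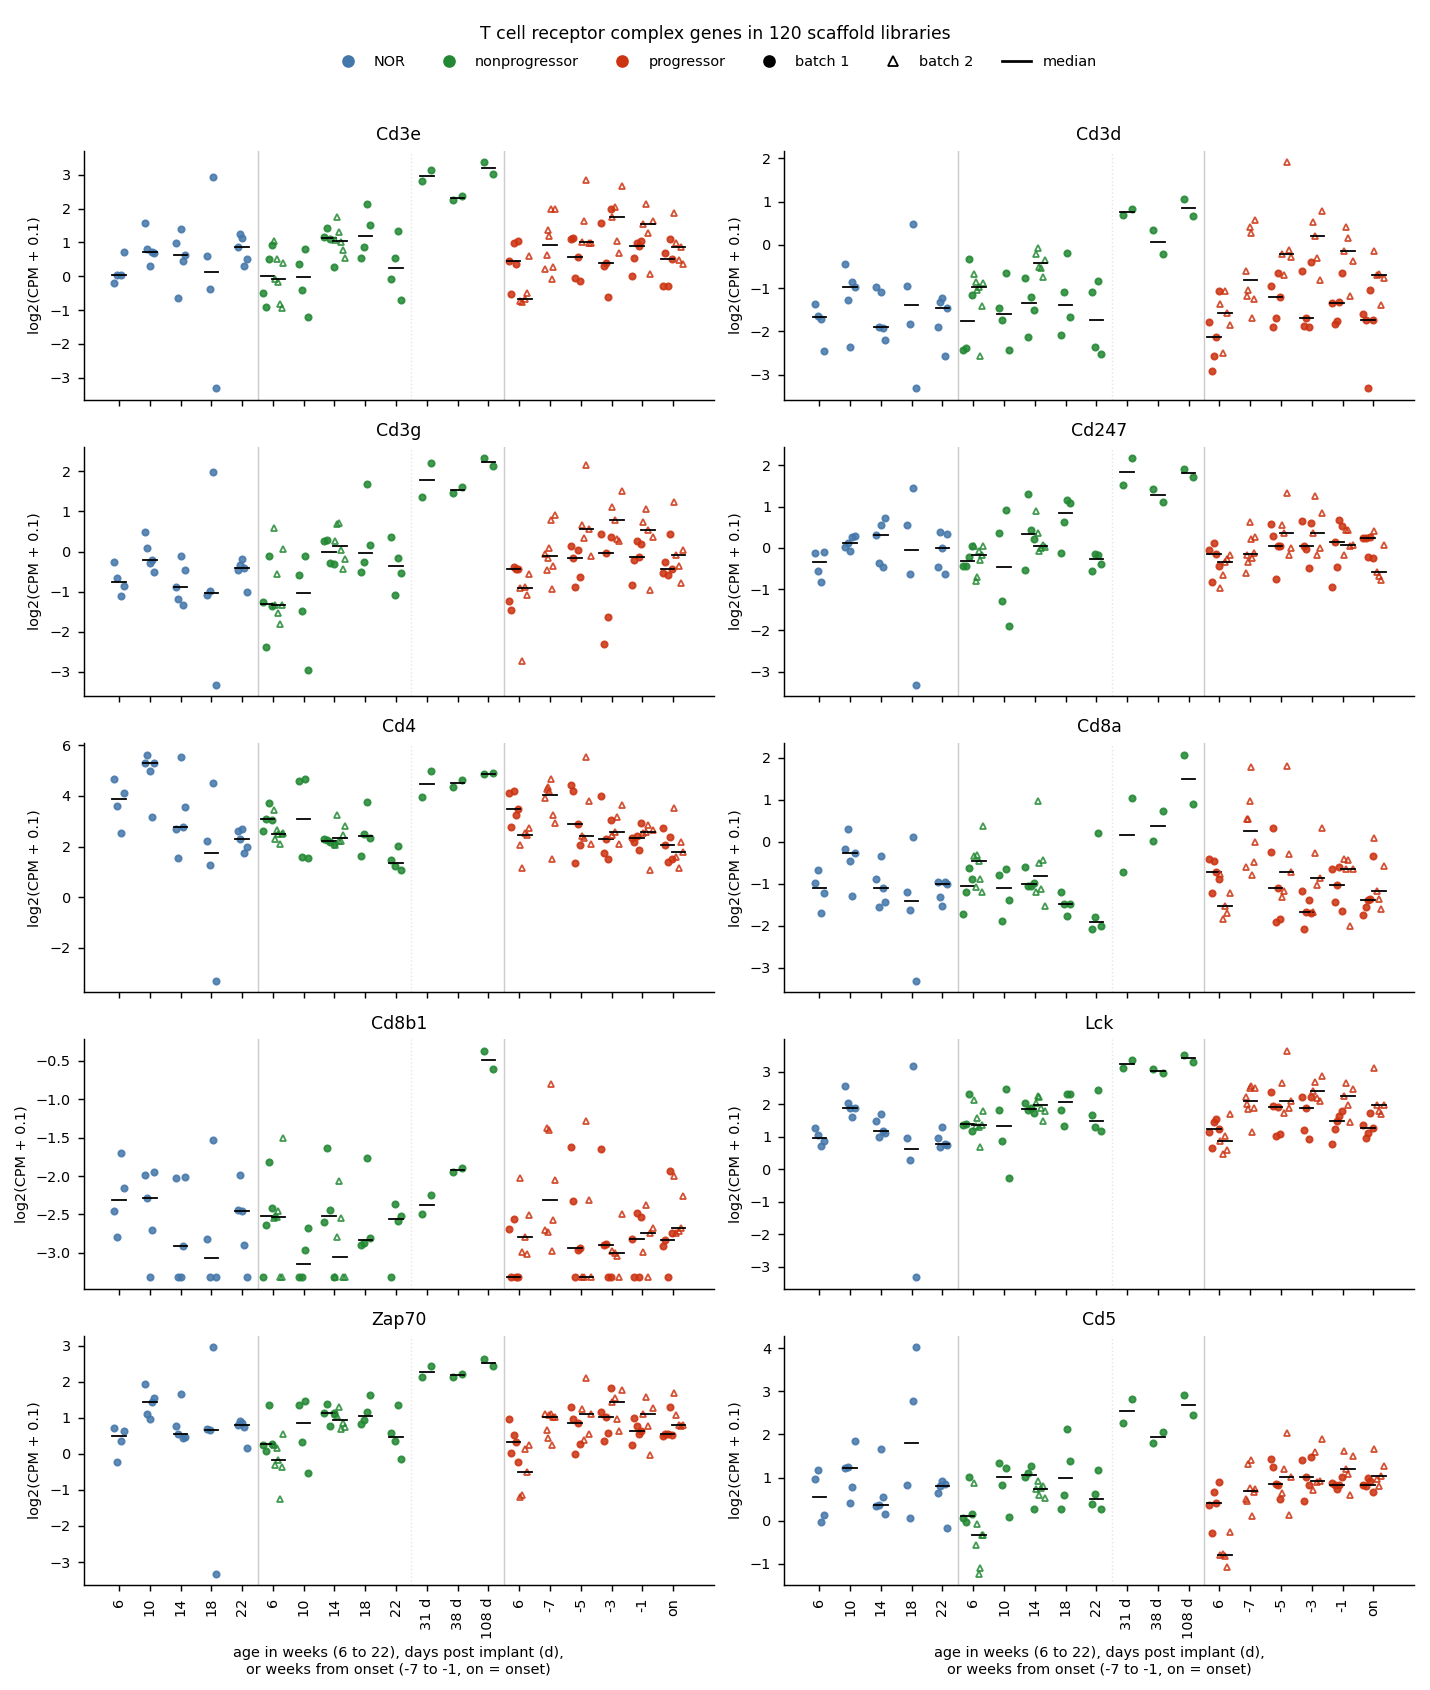
Level of each member in all 120 libraries as log2(CPM + 0.1), 1 panel per gene, with the groups in order of time on the x axis. Circles are batch 1, triangles batch 2 and bars the medians of the groups; Cd4 stands highest in NOR at 10 weeks, where 4 of 5 libraries lay between 31.5 and 49.7 CPM.

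The first comparison asked whether the members in the IN of progressors changed between 6 weeks of age and the last weeks before onset. Cd5, whose level follows the strength of receptor signals in T cells, had the smallest adjusted p. At 6 weeks, Cd5 stood at 1.20, 0.722, 1.5, 1.23 and 1.77 CPM in progressor mice 1 to 5 (batch 1) and at 0.482, 0.485, 0.465, 0.374 and 0.729 CPM in mice 6 to 10 (batch 2). Later it ran from 1.27 to 2.70 CPM (median 1.69) in 20 libraries of batch 1 and from 0.993 to 3.99 CPM (median 2.00) in 20 of batch 2. The groups did not overlap in batch 2 and overlapped in batch 1. Over all 58 libraries, with batch as a term, Cd5 rose by 1.20 on the log2 scale (SE 0.20, adjusted p = 4.04e-06, edgeR).

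The CD3 genes moved the same way with more scatter. Cd3e, the chain that pairs with both delta and gamma, stood at 1.28, 0.591, 1.88, 1.19 and 1.97 CPM in mice 1 to 5 at 6 weeks and at 0.506, 0.485, 0.531, 0.608 and 1.41 CPM in mice 6 to 10. Later Cd3e ran from 0.558 to 3.84 CPM (median 1.37) in batch 1 and from 0.953 to 7.08 CPM (median 2.15) in batch 2. The later range enclosed all 6-week values in batch 1, and in batch 2 only mouse 10 at 6 weeks reached into it. Cd3d stood at 0.190, 0.0328, 0.0697, 0.128 and 0.380 CPM in mice 1 to 5 at 6 weeks and at 0.289, 0.0765, 0.376, 0.234 and 0.176 CPM in mice 6 to 10. Later Cd3d ran from 0 to 0.657 CPM (median 0.220) in batch 1 and from 0.283 to 3.68 CPM (median 0.750) in batch 2, overlapping the 6-week values in both. The mean of the later biopsies of a mouse was above its 6-week value in 10 of 10 progressors for Cd3d, Cd3g and Cd5, and in 9 of 10 for Cd3e, Cd247, Lck and Zap70.

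In this comparison 7 of 9 members rose and none fell, where 39.5% of all 21279 genes tested changed in either direction (edgeR, adjusted p under 0.05). The median change of the 9 was 0.92, against 0.01 over all genes. The CD3 genes rose by 0.92 (Cd3e, SE 0.31, adjusted p = 0.015), 1.5 (Cd3d, SE 0.37, adjusted p = 0.000931) and 1.24 (Cd3g, SE 0.32, adjusted p = 0.00163). Cd247, the zeta chain, rose by 0.59 (SE 0.19, adjusted p = 0.0116). The kinases rose by 0.83 (Lck, SE 0.20, adjusted p = 0.00096) and 0.98 (Zap70, SE 0.21, adjusted p = 0.000215). Cd4 stood at −0.31 (SE 0.32, adjusted p = 0.466) and Cd8a at 0.21 (SE 0.34, adjusted p = 0.657), and neither passed. Repeated biopsies of a mouse enter as separate samples here.

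**Figure D2:**
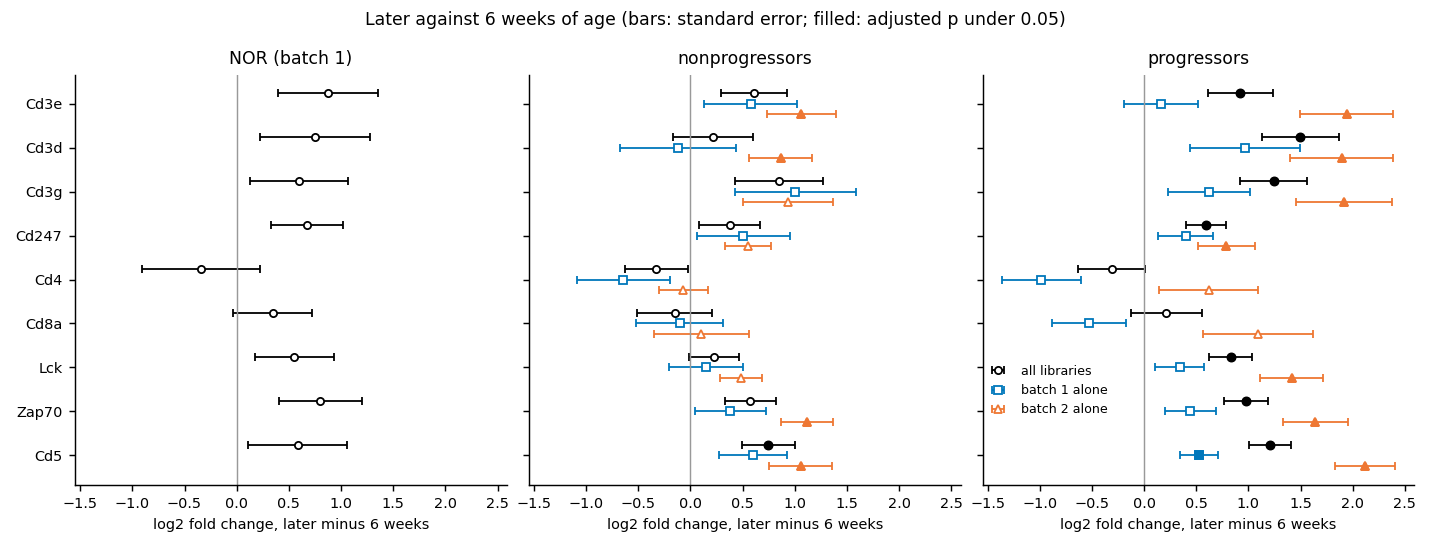
Change of each tested member from 6 weeks to the later samples as log2 fold change with its standard error, for NOR, nonprogressors and progressors, over all libraries and within each batch. Filled markers passed an adjusted p of 0.05 (edgeR): in progressors these are 7 members over all libraries and 7 within batch 2, and Cd5 alone within batch 1.

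The batches differed in the size of the rise. Within batch 1, where 27.1% of 19596 genes were called, Cd5 was the 1 member of 9 that passed (0.52, SE 0.18, adjusted p = 0.0364), with Cd3e at 0.16 (SE 0.35) and Zap70 at 0.44 (SE 0.25). Within batch 2, where 31.2% of 21377 genes were called, the 7 members passed, with 2.12 (SE 0.29) for Cd5, 1.94 (SE 0.44) for Cd3e, 1.89 (SE 0.50) for Cd3d and 1.64 (SE 0.31) for Zap70. Cd4 and Cd8a had opposite signs in the batches, at −0.98 and −0.53 in batch 1 and 0.62 and 1.09 in batch 2, and none of the 4 values passed. A test of the difference between the batches, added after these values were seen, called 2 of 9 members, both with the larger rise in batch 2, where 4.66% of 21708 genes were called. Cd5 differed by 1.6 (SE 0.32, adjusted p = 0.00643) and Cd3e by 1.79 (SE 0.53, adjusted p = 0.0433). The −5 library of mouse 8 held the highest value of every member among later progressor libraries of batch 2, among them 7.08 CPM of Cd3e and 12.4 CPM of Lck. Without it the difference was called for Cd5 alone (Cd3e adjusted p = 0.0543, with 4.4% of all genes called), as it was with the mouse as a block (Cd3e adjusted p = 0.0629, with 3.04% called). Each batch held 5 of the mice, so that batch and mouse cannot be told apart.

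**Figure D3:**
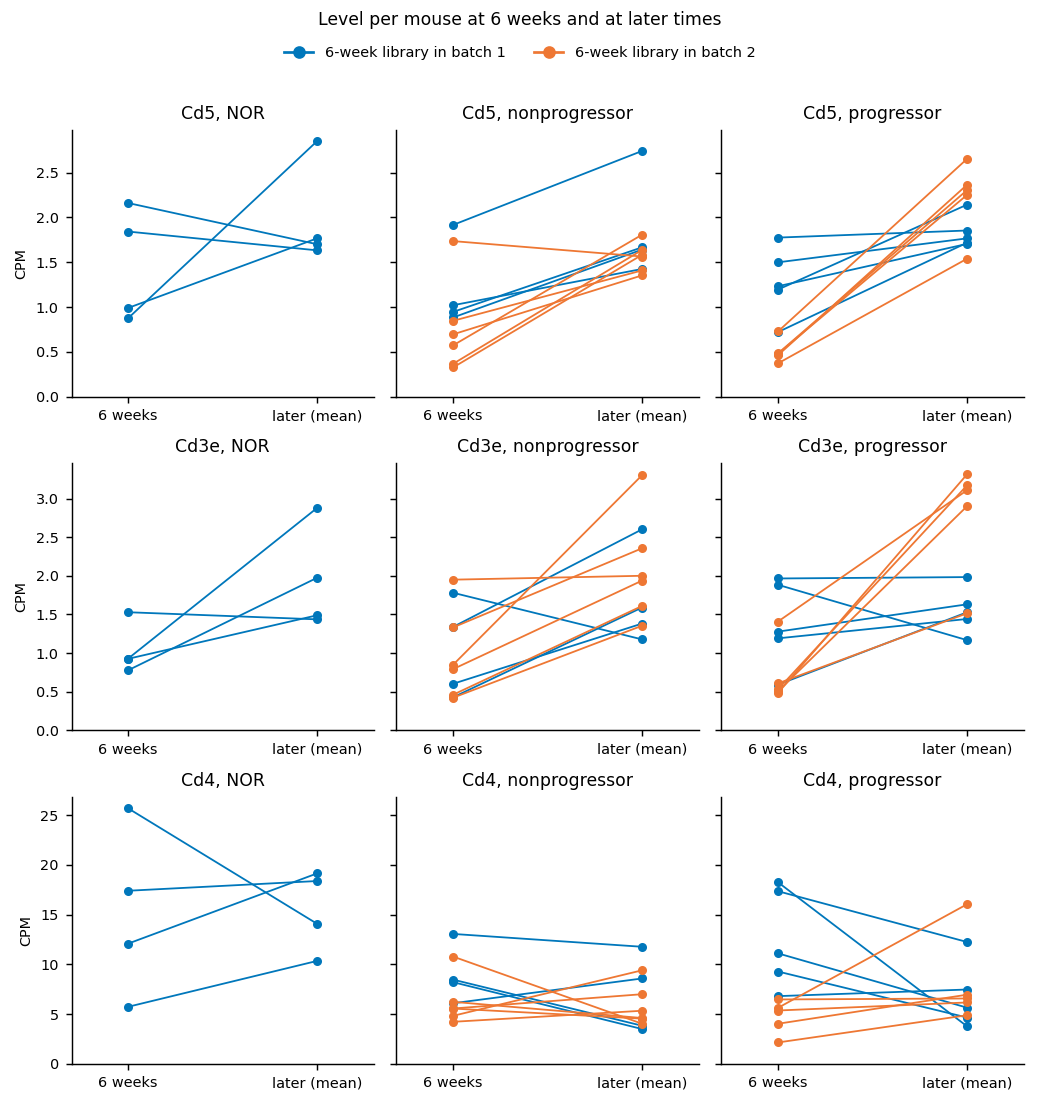
Level of Cd5, Cd3e and Cd4 in CPM at 6 weeks and the mean of the later biopsies of the same mouse, joined by a line per mouse and coloured by the batch of the 6-week library. Cd5 lines rise in all 10 progressors, while Cd4 lines rise in 1 of 5 progressors of batch 1 and in 5 of 5 of batch 2 (NOR mouse 5 is shown without its 18-week library).

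Other genes of the pathway and of the cell types an IN can hold were read in the same comparison. Of 25 further genes of T cell receptor signalling, 15 rose and 1 fell (Plcg1, a phospholipase), with a median of 0.50. Those with the smallest p were Ptprc (0.50, SE 0.08), Rhoh (0.66, SE 0.11) and Themis, a T cell signalling protein (2.17, SE 0.39). Of 5 receptor chain genes Trbc1 rose (0.87, SE 0.31), and of 8 T lineage factors 4 rose, among them Gata3 (1.83) and Runx3 (0.56), while Ets1 fell by 0.23. Markers of other cells moved in the same samples. Of 7 B cell markers 6 rose (median 1.78, among them Ms4a1 at 2.69), of 8 NK cell markers 2 rose (Klrb1c and Klra7) and of 5 lymph node stroma markers 2 rose (Glycam1 and Cr2). Of 8 dendritic cell markers 1 rose (Itgax, with a list median of −0.11) and of 8 macrophage markers 1 fell (Fcgr1, with a list median of 0.14). All 6 fibroblast markers fell (median −1.23), and of 6 epidermis and muscle markers Krt14 rose, with a list median of −0.66. The summed fibroblast markers ran from 39096 to 83240 CPM at 6 weeks and from 5899 to 43239 CPM later. The part of these cells in the change of the members was not tested.

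The ratio of the CD3 genes to Ptprc sets T cell transcripts against those of all leukocytes. The log2 ratio of the sum of Cd3e, Cd3d and Cd3g to Ptprc was higher later by 0.711 in progressors, in 7 of 10 mice (exact permutation p = 0.0879 by sign flips over mice, two-sided, adjusted 0.396 over 18 ratio tests). In nonprogressors it was higher later by 0.846, in 9 of 10 mice (exact permutation p = 0.0176, adjusted 0.158). In NOR it was higher by 0.654, in 3 of 4 mice (exact permutation p = 0.25, where 0.125 is the smallest possible). None of the 18 ratios passed after adjustment.

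Samples at −7 weeks came from 8 of the 10 progressors, all sequenced in batch 2, while the 6-week libraries of mice 1 to 4 were in batch 1. Cd4 stood at −7 weeks at 2.75 to 25.2 CPM (median 16.6), Cd8a at 0.476 to 3.32 CPM (median 1.12) and Cd5 at 0.979 to 2.53 CPM (median 1.52). All 8 values of Cd5, and 7 of 8 of Cd4 and of Cd8a, lay above the 5 values of batch 2 at 6 weeks, whose highest were 0.729, 6.46 and 0.482 CPM. Those 5 values are of mice 6 to 10 and so are not paired with mice 1 to 4. In mice 1 to 4 Cd4 stood at 17.3, 6.80, 18.2 and 9.27 CPM at 6 weeks (batch 1). At −7 weeks (batch 2) it stood at 14.9, 19.1, 20.6 and 18.2 CPM in them. Over all 58 libraries, −7 against 6 weeks called 2 of 9 members, both higher, where 12.5% of 21279 genes changed. Cd8a rose by 1.40 (SE 0.46, adjusted p = 0.0361) and Cd5 by 0.90 (SE 0.27, adjusted p = 0.0176), and Cd4 stood at 0.83 (SE 0.47, adjusted p = 0.249). Within batch 2, where 19.1% of 21377 genes were called, 8 of 9 members rose, all but Cd247, with 2.16 (SE 0.59) for Cd8a, 1.69 (SE 0.30) for Cd5 and 1.62 (SE 0.55, adjusted p = 0.0365) for Cd4. That fit also set mice 1 to 4 at −7 weeks against other mice at 6 weeks. With the mouse as a block, where 4.15% of genes were called, none of the 9 passed in edgeR, 6 had an unadjusted p under 0.05, and Cd8a stood at 1.41 (adjusted p = 0.127) and Cd5 at 0.96 (adjusted p = 0.0698). Without the −5 library of mouse 8, 5 members passed, with 13.2% of genes called.

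Of the other lists at −7 weeks, Cd6, Grap2 and Ptprc rose and Fyn fell among the 25 signalling genes. No receptor chain or T lineage gene passed. Klra7 rose among 8 NK cell markers (list median 0.61), Cd22 among 7 B cell markers (0.71) and Itgax among 8 dendritic cell markers (0.33). Mertk rose among 8 macrophage markers, although the list median was −0.27, and Glycam1 among 5 lymph node stroma markers (0.22). Of the 6 fibroblast markers 3 fell. Krt10 fell among 6 epidermis and muscle markers, although the list median was 0.61.

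From −7 weeks to the later samples 2 of 9 members fell and none rose, where 3.89% of 21279 genes changed. Cd4 fell by 1.14 (SE 0.35, adjusted p = 0.047) and Cd8a by 1.19 (SE 0.34, adjusted p = 0.0344). The other 7 tested members did not pass and lay between 0.14 (Lck) and 0.48 (Cd3g). Within batch 2 Cd4 stood at −1.0 (adjusted p = 0.0937) and Cd8a at −1.06 (adjusted p = 0.0871), and with the mouse as a block at −0.79 (adjusted p = 0.442) and −1.20 (adjusted p = 0.218), so neither call held there. These fits called 6.32% and 0% of all genes. In the other lists Rhoh, Runx3 and the macrophage marker Adgre1 rose and the fibroblast gene Lum fell.

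In nonprogressors the later samples were compared with 6 weeks in the same way. Cd5 stood at 6 weeks at 0.947, 0.885, 1.92 and 1.02 CPM in mice 1 to 4 (batch 1) and at 0.328 to 1.74 CPM (median 0.696) in 7 mice of batch 2. Later Cd5 ran from 0.955 to 4.26 CPM (median 1.79) in 16 libraries of batch 1 and from 1.35 to 1.81 CPM (median 1.57) in 6 of batch 2. In batch 2, 6 of the 7 values at 6 weeks lay below all later ones. Cd5 rose by 0.75 (SE 0.25, adjusted p = 0.0315), the only call among 9 members, where 24.1% of 21138 genes changed. Cd3g stood at 0.85 (SE 0.42, adjusted p = 0.144), Cd3e at 0.61 (SE 0.32, adjusted p = 0.166), Zap70 at 0.57 (SE 0.24, adjusted p = 0.0835), Cd4 at −0.33 (SE 0.30) and Cd8a at −0.15 (SE 0.36), none of which passed.

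These nonprogressor calls moved with the model. With the mouse as a block, where 20.6% of genes were called, 3 of 9 members rose, Cd3g (1.05, adjusted p = 0.0442), Zap70 (0.66, adjusted p = 0.0487) and Cd5 (0.82, adjusted p = 0.0161). Within batch 1, where 13.8% of genes were called, edgeR called none of the 9, nor had any an unadjusted p under 0.05, with Cd5 at 0.60 (SE 0.33). Within batch 2, which held 6 and 14 weeks and where 34.1% of genes were called, 4 of 9 members rose, Cd3e (1.06, SE 0.33), Cd3d (0.87, SE 0.30), Zap70 (1.12, SE 0.25) and Cd5 (1.06, SE 0.30). The call of Cd5 was lost when mouse 1, 2, 4, 6 or 8 was left out. The mean of the later biopsies of a mouse was above its 6-week value in 10 of 10 nonprogressors for Cd247, in 9 for Cd3e, Cd3g, Zap70 and Cd5, in 4 for Cd4 and in 3 for Cd8a.

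Of the other lists in nonprogressors, 3 of 25 signalling genes rose, among them Lat and Ubash3a. None of 5 receptor chain genes, 8 T lineage factors, 8 NK cell markers or 5 lymph node stroma markers passed. Of 7 B cell markers 3 rose, among them Cd22 and Pax5. Itgax rose and Flt3 and Clec9a fell among dendritic cell markers, and Fcgr1 fell among macrophage markers. All 6 fibroblast markers fell (median −0.82), as did Krt10 and Krt5 of the epidermis. The part of these cells in the change of Cd5 was not tested.

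In NOR mice no member passed. Cd3e stood at 0.778, 0.926, 0.929 and 1.53 CPM at 6 weeks in mice 1, 2, 4 and 5, and later at 0.544 to 7.59 CPM (median 1.53) in 18 libraries without the one rich in ribosomal RNA. The values overlapped, and the highest came from mouse 4 at 18 weeks. The change was positive for 8 of 9 members, from 0.35 (Cd8a, SE 0.38) to 0.87 (Cd3e, SE 0.48), and stood at −0.34 (SE 0.57) for Cd4. In edgeR 0 of 9 members and 0.0357% of 19628 genes were called, none of the 9 had an unadjusted p under 0.05, and DESeq2 also called no member. Without the library rich in ribosomal RNA no member was called and 2 had an unadjusted p under 0.05. No gene of the other lists passed.

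Whether the groups differed in their change was tested by interaction terms, with repeated biopsies of a mouse as separate samples. Between progressors and nonprogressors, 0 of 9 members and 0% of 22566 genes were called by edgeR, and DESeq2 called no member. Cd3d was the 1 member with an unadjusted p under 0.05 (larger in progressors by 1.04, SE 0.49, adjusted p = 0.757), and Cd5 stood at 0.35 (SE 0.30). The median difference of the 9 was 0.29 over both batches, −0.11 within batch 1 (3 of 9 positive) and 0.93 within batch 2 (9 of 9 positive, 2 at an unadjusted p under 0.05), and no member was called within either batch. Between NOD and NOR in batch 1, 0 of 9 members and 0% of 21131 genes were called by edgeR, none of the 9 had an unadjusted p under 0.05, and DESeq2 called no member. This second test pools progressors with nonprogressors, and its differences ran from −0.66 (Cd8a, SE 0.50) to 0.22 (Cd3g, SE 0.59). The rise in progressors was therefore not shown to differ from the change in nonprogressors, and progressors alone were not tested against NOR.

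Progressors and nonprogressors were compared at 6 weeks of age, before disease. Lck stood at 2.12, 1.48, 2.65, 2.85 and 2.28 CPM in progressor mice 1 to 5 and at 2.50, 2.50, 4.87 and 2.16 CPM in nonprogressor mice 1 to 4. In batch 2 Lck ran from 1.28 to 3.17 CPM (median 1.71) in 5 progressors and from 1.52 to 4.30 CPM (median 2.45) in 7 nonprogressors. The groups overlapped in both batches. In edgeR 0 of 9 members and 0% of 20090 genes were called, Lck alone of the members had an unadjusted p under 0.05 (−0.48, SE 0.20, adjusted p = 0.909), and DESeq2 called none. Cd4 stood at 0.00 (SE 0.26) and Cd3d at −0.80 (SE 0.41). No gene of the other lists passed.

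Late in the study, biopsies of batch 1 were summed to 1 library per mouse, and 5 progressors (−3 and −1 weeks and onset) were set against 4 nonprogressors (14, 18 and 22 weeks). At onset Cd5 stood at 1.66, 1.66, 1.88, 1.80 and 1.49 CPM in progressor mice 1 to 5, within the range of 1.11 to 4.26 CPM of the nonprogressors at 18 weeks. In edgeR 0 of 9 members and 0% of 21447 genes were called, none of the 9 had an unadjusted p under 0.05, and DESeq2 called none of the 7 members for which it gave an adjusted p. The log2 differences, progressor minus nonprogressor, ran from −0.35 (Lck, SE 0.18) to 0.39 (Cd4, SE 0.29), with 0.01 (SE 0.18) for Cd5. No gene of the other lists passed.

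NOD and NOR mice were compared in batch 1 with biopsies summed per mouse (9 NOD and 5 NOR mice), to see which transcripts separate the strains. The sums mix times. All NOR mice had a 10-week library, while no progressor had one labelled with that age. Between progressors and NOR, strain and the times sampled therefore cannot be told apart. Cd4 was the member that differed. At 10 weeks Cd4 stood at 39.4, 49.7, 31.5, 8.97 and 39.4 CPM in NOR mice 1 to 5 and at 23.8, 2.89, 25.0 and 2.81 CPM in nonprogressor mice 1 to 4. At 14 weeks it stood at 6.32, 2.82, 46.0, 6.64 and 11.8 CPM in NOR and at 4.85, 4.66, 4.41 and 4.16 CPM in nonprogressors of batch 1. At 18 weeks it stood at 4.5, 2.34, 22.5 and 0 CPM in NOR mice 1, 3, 4 and 5, the 0 being the library rich in ribosomal RNA, and at 2.97, 5.50, 13.6 and 5.00 CPM in nonprogressors. The median at 18 weeks was thus higher in nonprogressors than in NOR, unlike at the other ages given. At 22 weeks both groups were low, with 6.04, 4.86, 6.30, 3.21 and 3.90 CPM in NOR and 2.67, 2.24, 4.01 and 1.99 CPM in nonprogressors. The groups overlapped at each of these ages.

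Cd4 was lower in NOD than in NOR by 1.13 on the log2 scale (−1.13, SE 0.28, adjusted p = 0.0185, edgeR), the only call among 10 members, where 8.98% of 23387 genes differed. The other members lay between −0.61 (Cd8b1, SE 0.42) and 0.09 (Lck, SE 0.17). The call of Cd4 was lost without NOR mouse 3 (−1.04, adjusted p = 0.0594), with nonprogressors as the only NOD mice (−1.10, adjusted p = 0.102) and at 6 weeks alone (−0.48, adjusted p = 0.607). It held without the 18-week library of NOR mouse 5. The log2 ratio of Cd4 to Cd8a was 4.30 ± 0.350 (SD, n = 9) in NOD and 5.12 ± 0.449 (SD, n = 5) in NOR mice (exact permutation p = 0.0035, adjusted 0.0629 over the 18 ratio tests).

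In the same comparison Lat was higher in NOD (0.92, SE 0.10) and Cd28 lower among the 25 signalling genes. Cd22 of the 8 B cell markers (list median 0.31) and Itgax of the 8 dendritic cell markers (list median −0.13) were lower in NOD. Lower too were 4 of 8 macrophage markers, with C1qb at −0.88 (SE 0.10), C1qa at −0.50 (SE 0.10) and Csf1r at −0.26 (SE 0.06). No receptor chain, T lineage, NK cell, lymph node stroma, fibroblast or epidermis and muscle gene passed. The part of these other cells in the level of Cd4 was not tested.

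Cd4 did not keep a fixed ratio to the CD3 genes. The ratio of Cd4 to the mean of Cd3e, Cd3d and Cd3g, each in CPM per kb, had medians in NOR of 20.4 at 6 weeks, 37.3 at 10 weeks, 10.1 at 14 weeks, 4.48 at 18 weeks and 4.88 at 22 weeks. In nonprogressors of batch 1 the medians of this ratio were 12.8, 17.4, 3.45, 3.95 and 3.04 at these ages. In progressors of batch 1 the ratio ran from 9.33 to 24.9 (median 19.3) at 6 weeks and from 3.26 to 9.98 (median 4.30) at onset, with overlap. In progressors of batch 2 it ran from 7.20 to 10.2 (median 8.84) at 6 weeks, from 2.51 to 19.3 (median 9.87) at −7 weeks and from 1.95 to 4.58 (median 2.92) at onset, and the values at 6 weeks and onset did not overlap. These ratios are given as a description, with no test.

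**Figure D4:**
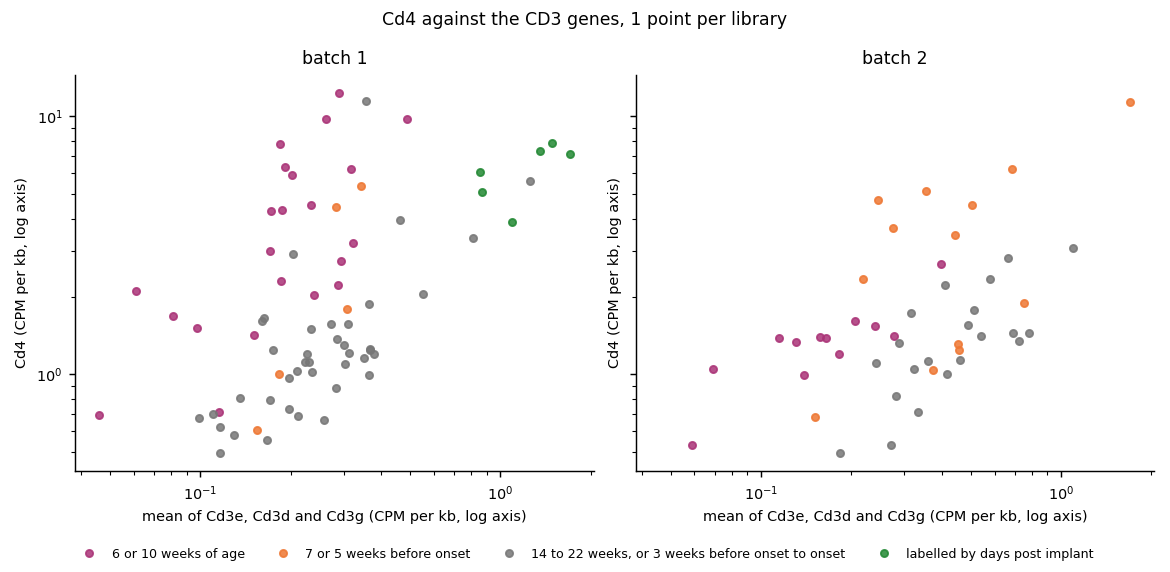
Level of Cd4 against the mean level of Cd3e, Cd3d and Cd3g in each library, both in CPM per kb on log axes, 1 panel per batch, coloured by the time of the biopsy. In batch 1 most libraries of 6 or 10 weeks lie above those of 14 to 22 weeks at like CD3 levels, and the median ratio in NOR was 37.3 at 10 weeks and 4.88 at 22 weeks.

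Across libraries, the CD3 genes, Cd247, the kinases and Cd5 varied together. The 21 pairs among these 7 genes had a median Pearson r of log2(CPM + 0.1) of 0.682 over 67 libraries of batch 1 (0.475 to 0.780) and of 0.839 over 46 libraries of batch 2 (0.569 to 0.919). With the 7, the median r was 0.415 and 0.502 for Cd4, 0.379 and 0.521 for Cd8a and 0.352 and 0.280 for Cd8b1. Libraries of a batch share mice, times and scaling, and Cd8b1 has few counts, so these values are descriptions.

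The genes most like the members were ranked by the correlation of each of 20753 genes with the mean standardised level of the 10, taking the lower value of the batches. Among the leading genes were Ltb (0.835 in batch 1 and 0.881 in batch 2), Skap1 (0.834 and 0.892), Il18r1 (0.806 and 0.870), Tbc1d10c (0.804 and 0.908), Grap2 (0.790 and 0.910), Agap2 (0.785 and 0.828), Sh2d2a (0.779 and 0.894), Ptprcap (0.770 and 0.916) and Septin1 (0.769 and 0.816). Ltb encodes lymphotoxin beta, and Skap1, Grap2 and Sh2d2a adaptor proteins. The median r over lists in batches 1 and 2 was 0.692 and 0.706 for receptor chains and 0.488 and 0.690 for signalling genes. It was 0.532 and 0.676 for NK cell markers, 0.314 and 0.5 for B cell markers and 0.308 and 0.377 for T lineage factors. Dendritic cell markers stood at 0.351 and 0.565 and macrophage markers at 0.440 and 0.0709. Lymph node stroma stood at 0.246 and 0.325, fibroblast at 0.00254 and −0.287 and epidermis and muscle at 0.0135 and 0.279. Over all genes the median was 0.0088 and 0.0123.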

How the data were processed

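The authors deposited expected counts per gene as whole numbers, not normalized, with a separate table per batch. The submitters' processing notes name cutadapt, FastQC, STAR, RSEM, MultiQC and GRCm38, and the strand used in counting is not given in the sources used here. Counts were filtered with filterByExpr, scaled by TMM and tested with the quasi-likelihood test of edgeR 4.0.16 (R 4.3.3), adjusted by Benjamini-Hochberg over all genes tested, with a threshold of 0.05. Batch was a term where groups spanned both batches. The comparison of NOD with NOR and that of the late samples used batch 1 with the biopsies of a mouse summed. The other main fits took biopsies as separate samples, among them the interaction between NOD and NOR, also in batch 1. DESeq2 1.42.0, RLE factors, no filter, a mouse block, single batches and leaving out mice were alternatives. Ratios (0.5 added to counts) were tested by exact permutation in Python 3.11.15, two-sided. Mouse numbers in the labels pair the biopsies of a mouse, and deviations from group means over 14799 genes had mean same-mouse correlations of 0.0259 (NOR), 0.0263 (nonprogressors) and −0.00509 (progressors). All 416 pairs of libraries within a group differed beyond counting error (chi-square over its degrees of freedom at least 14.6). Scripts for tests across genes were tested on simulated data. The members, the lists and the rule for named genes (all members, at most 3 genes per list, and the 10 genes most like the members) were chosen with earlier results of these data known, and some genes the rule names are not reported here. The lists were receptor chains, receptor signalling, T lineage factors, NK cell, B cell, dendritic cell, macrophage, lymph node stroma, fibroblast, and epidermis and muscle.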

Additional observations from a re-analysis of the deposited data

Results flagged for a closer look

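Of 150 combinations of member and group looked at, 25 held 1 library far from the others of its group by Dixon's test. The nominal rate of that test is about 1 in 20. The members vary together and some groups pooled both batches, so the 25 cannot be read against that rate. The −5 library of progressor mouse 8 gave 8 of them, with 7.08 CPM of Cd3e, 3.68 of Cd3d, 4.38 of Cd3g, 2.42 of Cd247, 45.9 of Cd4, 3.37 of Cd8a, 12.4 of Lck and 4.19 of Zap70. Progressor mouse 6 at onset stood out with 3.54 CPM of Cd3e, 2.24 of Cd3g, 11.4 of Cd4 and 8.60 of Lck. Cd8b1 stood out in progressor mouse 6 at 6 weeks (0.144 CPM, 6 counts) and progressor mouse 1 at −3 weeks (0.218 CPM, 7 counts).

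In NOR, mouse 3 at 14 weeks stood out with 46.0 CPM of Cd4, 3.03 of Zap70 and 3.07 of Cd5, mouse 4 at 18 weeks with 3.85 CPM of Cd3g and 0.247 of Cd8b1, mouse 1 at 10 weeks with 2.90 CPM of Cd3e and mouse 5 at 22 weeks with the lowest Zap70 (1.02 CPM). In nonprogressors, mouse 3 stood out with 3.10 CPM of Cd3g and 0.194 of Cd8b1 at 18 weeks and 1.05 CPM of Cd8a at 22 weeks. Its 18-week library had the lowest total count of all (4722396), and these values are 16 counts of Cd3g and 1 of Cd8b1. The Cd8b1 value of NOR mouse 4 at 18 weeks is 7 counts. Nonprogressor mouse 6 stood out with 1.85 CPM of Cd8a at 14 weeks.

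The 6 nonprogressor libraries labelled by days after implantation, which entered no comparison, held high levels of the members. Their highest values were 10.3 CPM of Cd3e, 1.97 of Cd3d, 4.92 of Cd3g, 4.41 of Cd247, 31.8 of Cd4, 4.12 of Cd8a, 0.675 of Cd8b1, 11.4 of Lck, 6.02 of Zap70 and 7.46 of Cd5. All 6 lay above the highest of the 20 nonprogressor libraries of batch 1 labelled by age for Cd3e (4.65 to 10.3 against at most 4.26 CPM), Lck (7.62 to 11.4 against 5.43 CPM) and Zap70 (4.29 to 6.02 against 2.99 CPM). For the other members 2 to 5 of the 6 did. The share of all genes that separated these libraries in the same way was not counted, and the differences were not tested.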

How the results depend on the processing

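Counts of members called changed as follows. For NOD against NOR, 1 member was called, 0 with nonprogressors only, 0 with 6-week samples only, and 0 to 1 when 1 mouse was left out (0 without NOR mouse 3). For nonprogressors later, 1 was called, 0 within batch 1, 4 within batch 2, 2 without the batch term (with 9173 of 21138 genes called), and 0 to 1 when 1 mouse was left out. For progressors later, 7 were called and 1 within batch 1. For −7 against 6 weeks, 2 were called, 8 within batch 2 and 5 without the −5 library of mouse 8. DESeq2 called 4 (with 3163 of 21176 genes called), and 1 was called with no filter (2091 of 38826 genes). Without the batch term 6 were called (3702 of 21279 genes). For later against −7, 2 were called, 0 with no filter (605 of 38826 genes) and 0 within batch 2. For the difference between batches, 2 were called, 4 by DESeq2 (1771 of 19902 genes) and 1 without the −5 library of mouse 8. The cause was not tested.

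With the mouse as a replicate block, 3 members were called in nonprogressors later, 0 at −7 against 6 weeks, 0 in later against −7 and 1 for the difference between batches, and the block changed no other call. Over all genes the block gave 883 calls against 2670 at −7 weeks and 0 against 828 for later against −7. DESeq2 called 198 genes against 0 in the late comparison, 46 against 7 in NOR, 9 against 0 and 13 against 0 for the differences between progressors and nonprogressors and between NOD and NOR, and 1771 against 1012 for the difference between batches, where the block gave 659. Genes called also moved from 2101 to 403 for NOD against NOR at 6 weeks only and, without NOR mouse 3 or 5 in turn, to 1433 and 1434. In nonprogressors they moved from 5094 to 2712 within batch 1, to 9173 without the batch term and to 2786 without mouse 1, and in progressors from 8403 to 5317 within batch 1. At −7 weeks they moved from 2670 to 4077 within batch 2, and for later against −7 from 828 to 1352 within batch 2, to 2157 without the batch term and to 1312 without the −5 library of mouse 8. In NOR they moved from 7 to 12 with no filter, 2 with the block, 12 without the library rich in ribosomal RNA and 0 to 54 over mice left out, and late from 0 to 1 without nonprogressor mouse 3.

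Signs that turned belonged to log2 values that had not passed. For NOD against NOR they were, at 6 weeks only, Cd3e 0.22, Cd247 0.15, Cd8a 0.28 and Zap70 0.064, and over mice left out Cd3d −0.32 to 0.018, Cd3g −0.25 to 0.064 and Lck −0.022 to 0.18. For progressors against nonprogressors at 6 weeks, batch 1 gave Cd3e 0.38, Cd3g 0.35, Cd8a 0.42 and Cd5 0.069, batch 2 gave Cd4 −0.38, no batch term gave Cd3e 0.012 and no filter gave Cd4 −0.0062. In NOR, mice left out gave Cd4 −0.85 to 0.11 and Cd8a −0.030 to 0.55. In nonprogressors Cd3d was −0.12 within batch 1 and −0.089 without the batch term, and Cd8a 0.11 within batch 2. In progressors Cd4 was 0.62 within batch 2 and Cd8a −0.53 within batch 1, and against −7 weeks without the batch term Cd3d was −0.24 and Lck −0.12. In the late comparison, batch 2 gave Cd3e 0.34, Cd3g 0.31, Lck 0.33 and Zap70 0.17, onset against 18 weeks gave Cd4 −0.65 and Cd5 −0.37, and mice left out gave Cd3d −0.23 to 0.25, Cd8a −0.37 to 0.015 and Cd5 −0.088 to 0.20. For the difference between progressors and nonprogressors, batch 1 gave Cd3e −0.42, Cd3g −0.39, Cd247 −0.11, Cd4 −0.35, Cd8a −0.43 and Cd5 −0.086, and Cd4 was −0.028 by DESeq2, −0.016 with RLE factors, −0.0027 with no filter and −0.040 without the batch term. For the difference between NOD and NOR, Cd5 was 0.14 without the 18-week library of NOR mouse 5. The other single-gene results kept their direction, 868 on the same side of the threshold, 23 newly past it and 26 no longer past it. Low counts limit Cd8b1, Cd3d and Cd8a most, and the labels tie no library labelled by days to a mouse.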

Other observations

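Genes were also ranked by how like their level was to that of Cd4, a ranking added after the values were seen. Tspan10 came first (r 0.806 over libraries of batch 1 and 0.822 of batch 2). Among the other leading genes were Tlr9 (0.839 and 0.805), an innate receptor for DNA, and Lilra5 (0.809 and 0.799). Klrk1 (0.784 and 0.790), an NK cell receptor, and Spic (0.776 and 0.829), a factor of some macrophages, were also among them. Genes ranked between these are not all named. Over lists, the median r with Cd4 was 0.685 and 0.695 for NK cell markers, 0.495 and 0.621 for receptor chains, 0.527 and 0.249 for macrophage markers and 0.392 and 0.561 for dendritic cell markers. Cd4 had an r of 0.415 and 0.502 with Cd3e and of 0.625 and 0.791 with Cd8a. These values are descriptions over libraries that share mice and times.

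Of the 6 libraries labelled by days, those at 108 days after implantation had summed B cell markers of 101 and 103 CPM, against 9.89 to 50.4 CPM in the 20 nonprogressor libraries of batch 1 labelled by age. Those at 31 days (44.8 and 51.3 CPM) and 38 days (43.1 and 44.9 CPM) lay in or close to that range. These differences were not tested.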
